A study of Homo sapiens with 18 samples.

Results

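Gene expression at 6 h was compared with that at 1 h in ECV304 cells given interleukin-1β (IL-1β) together with aminaphtone, with 3 arrays in each group out of 18 arrays in the series. The features compared were the annotated transcript clusters, the probe groups that represent genes on the Affymetrix Human Gene 1.0 ST array, whose mean log2 signal over all 18 arrays exceeded the 25th percentile of annotated clusters (6.19). These were 15796 of 28869 transcript clusters. Both groups received IL-1β at 100 IU/ml and aminaphtone at 6 µg/ml, after 24 h in medium with 1% serum, and differ in their labels only by the time of exposure. The remaining arrays hold the same treatment at 3 h and IL-1β without aminaphtone at 1, 3 and 6 h, again 3 arrays per group. No array came from cells without IL-1β. A difference between 6 and 1 h therefore describes the time since both agents were added, and their effects cannot be told apart from those of low serum or of time in culture. The replicates are labelled independent, and p-values measure only the spread between these samples.

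IL-1β is an inflammatory cytokine. Through its receptor and the adaptor MyD88 it activates the kinases that release NF-κB and the MAP kinase cascades. Immediate early genes, mostly transcription factors, are switched on within minutes of such a signal and shut off soon after, while chemokines, adhesion molecules, proteases and the inhibitors that limit NF-κB follow. Aminaphtone is a naphthohydroquinone derivative used for capillary disorders.

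ECV304 is an established line that the labels describe as endothelial with epithelial features, and it is known to share its origin with a bladder carcinoma line. Of 12 endothelial markers, 6 lay above the filter and 0 were among the brightest 25% of transcript clusters. PECAM1, VWF and KDR lay under the filter. All 14 urothelial and epithelial markers were above it, with KRT7, KRT8 and KRT18 between the 96.7th and 98.9th percentiles. Only these 3 of the 14 exceeded the median of annotated transcript clusters. Of the 12 endothelial markers 3 did so as well: ESAM (73.7th percentile), SOX17 (58.7th) and CLDN5 (53.8th). The leukocyte marker PTPRC was at the 1.51st percentile. Over time KRT7 (log2 difference -0.63), KRT18 (-0.46), CDH1 (-0.54) and UPK1B (-0.73) fell and CDH5 rose (0.59, limma adjusted p = 0.00332). The 4 that fell were 28.6% of the 14 urothelial and epithelial markers, and over all genes 11.3% fell. The other 10 did not pass, and 4 of the 14 had a difference above 0. CDH5 was 1 of 6 endothelial markers tested (16.7%, with 5.97% of all genes rising), and the other 5 did not pass. None of the fibroblast and leukocyte markers above the filter passed the test. CDH1 and KRT18 each lost the call without any 1 of the 1 h arrays, without replicate 1 or without replicate 2 at 6 h, and 2 of the 4 urothelial and epithelial genes then remained lower. KRT18 also lost it without replicate 3 at 6 h. Fewer cells of a type and less RNA per cell cannot be told apart in such bulk samples.

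Array medians ran from 6.93 to 7.06 on the log2 scale. Arrays within the 1 h and 6 h aminaphtone groups correlated at 0.989 to 0.992 and at 0.983 to 0.996 across transcript clusters, against 0.889 to 0.963 among the 1 h arrays without aminaphtone, which enter the fit's shared spread. The 3 arrays at 1 h were not alike in the genes that rose. Of the 158 transcript clusters that rose at least 2-fold, replicate 3 at 1 h had the highest of the 3 values in 125, replicate 1 in 19 and replicate 2 in 11, while over all transcript clusters replicate 3 was highest in 28.3%. Of the 364 that fell at least 2-fold, replicate 2 at 3 h lay nearest to the 1 h level in 211, replicate 3 in 124 and replicate 1 in 24.

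At 6 h most immediate early transcription factors were lower than at 1 h, as were most genes of sterol synthesis and of DNA replication, while chemokine, matrix protease, plasminogen activator and NF-κB pathway genes were among those that rose. NR4A3, an orphan nuclear receptor, had fallen furthest (19.3-fold), and CCL5, which attracts T cells, had risen furthest (22.9-fold). In limma, with Benjamini-Hochberg adjustment over all transcript clusters tested, 2644 of 15796 differed between 6 and 1 h (16.7%), 950 higher and 1694 lower. The 3 and 3 arrays did not overlap in 2642 of them, and in 7350 (46.5%) of all transcript clusters tested. Taken as genes, 824 of 13805 rose (5.97%) and 1558 fell (11.3%), and the median difference over all genes was 0.0167. By fold, 158 transcript clusters rose and 364 fell at least 2-fold. In 6 of the 158 all 1 h arrays, and in 18 of the 364 all 6 h arrays, lay under the signal filter. Such a transcript cluster passed the filter through groups where it is higher. The total became 1643 without replicate 1 at 1 h and 1716 without replicate 2 at 6 h, and rose to 3747 and 4008 without replicate 1 or replicate 2 of the 1 h arrays lacking aminaphtone.

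**Figure D1:**
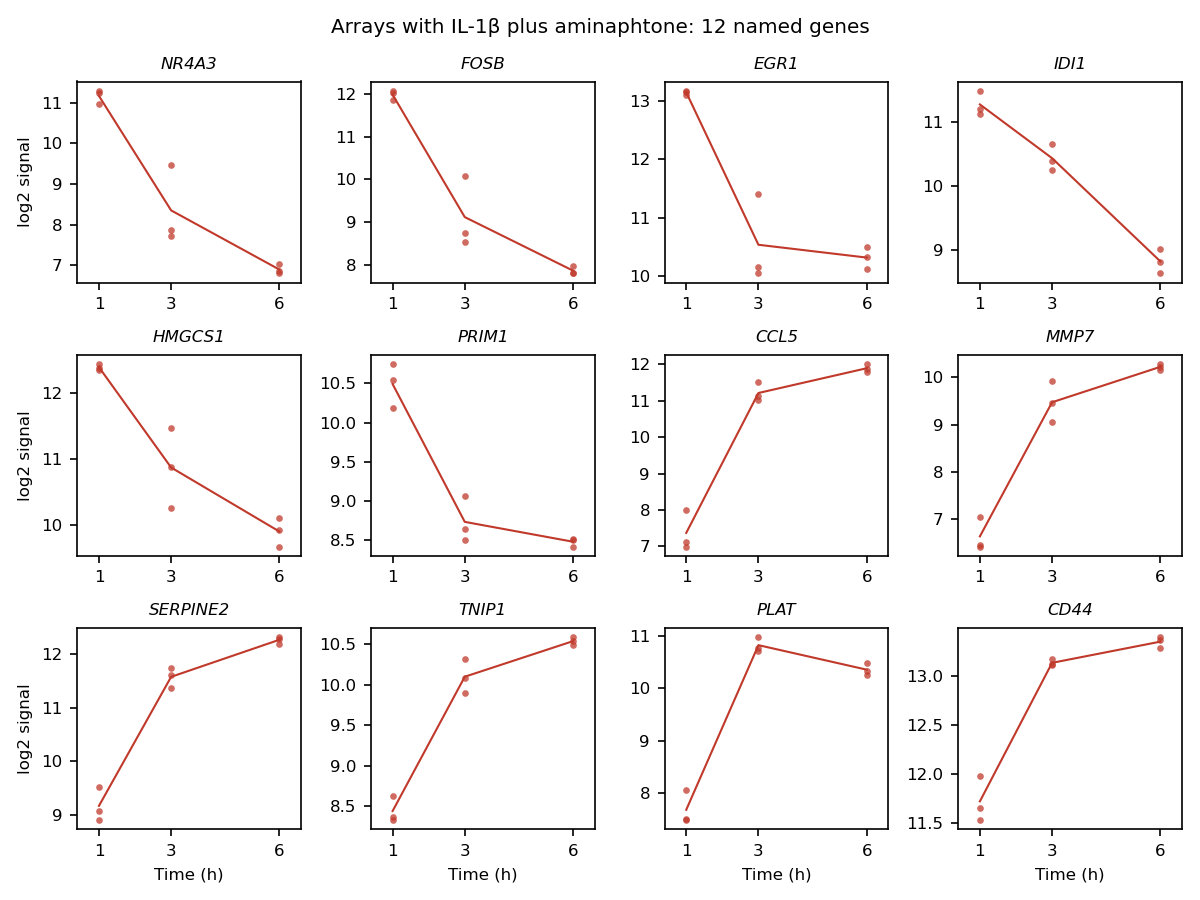
Log2 signal of 12 genes (vertical axes, a separate range for each) against time in h (horizontal axes) in the arrays with IL-1β plus aminaphtone; points are single arrays, 3 per time, and lines join the group means. NR4A3, FOSB, EGR1, IDI1, HMGCS1 and PRIM1 show 1 h arrays above all 6 h arrays, and the remaining 6 genes show the opposite order, with PLAT higher at 3 h than at 6 h.

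The immediate early genes fell almost as a block. Of the 33 measured, 27 fell and 1, the Krüppel-like factor KLF4, rose (0.73). These were 81.8% and 3.03%, against 11.3% and 5.97% of all genes. The median log2 difference was -1.40, against 0.0167 over all genes. NR4A3 read 11.30, 11.25 and 10.96 on the log2 scale at 1 h and 7.04, 6.85 and 6.80 at 6 h. Every 6 h array lay far below every 1 h array, and the difference was -4.27 (SE 0.389, adjusted p = 1.85e-06). Its relatives NR4A1 (-4.23) and NR4A2 (-3.05) fell as well. FOSB, a subunit of the AP-1 transcription factor, read 11.85, 12.03 and 12.08 at 1 h and 7.97, 7.81 and 7.79 at 6 h. The groups were again fully apart, and FOSB fell 17.5-fold (-4.13, SE 0.326, adjusted p = 4.62e-07). The AP-1 subunits FOS (-3.10), JUN (-1.93) and JUNB (-1.62) fell less than FOSB on this scale, in differences that were not set against each other by a test.

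Of the zinc finger factors in the same list, EGR3 fell 17.4-fold (-4.12, SE 0.397) and EGR1 fell 7.14-fold. EGR1 read 13.18, 13.16 and 13.11 at 1 h and 10.50, 10.32 and 10.12 at 6 h, so the groups stayed more than 2 log2 units apart. DUSP1, a phosphatase that switches off MAP kinases, read 12.10, 12.29 and 12.16 at 1 h and 10.93, 10.66 and 10.49 at 6 h. Its fall of 2.8-fold (-1.49, SE 0.176, adjusted p = 2.53e-05) left the groups apart. ZFP36, which destabilises AU-rich cytokine mRNAs, fell 3.93-fold (-1.97, SE 0.218), and the matricellular genes CCN2 (-2.03) and CCN1 (-1.38) fell with it. The 5 members that did not pass were FOSL2, DUSP2, ARC, IER5 and KLF2. KLF4 lost its call on leaving out replicate 1 or 2 at 1 h or any 1 of the 6 h arrays.

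Promoter sequence is shown for members of this list that fell, since the cyclic AMP response element and the CArG box of serum response factor are the textbook elements of immediate early promoters. The RefSeq table (build GRCh38.p14) gave the 250 bases upstream of the start for 20 of the 27 that fell. A gene counted as a match if any of its windows held the letters. The letters TGACG, searched on both strands, were present in 14 of the 20 genes (70%). They were in 34.1% of the genes tested that had a window and in 24.9% of all genes with a window. The full palindrome TGACGTCA, which contains TGACG, was in 3 of 20 (15%) against 3.3% for the genes tested and 2.03% of all genes. The CArG box, a motif added after the data had been seen, was in 2 of 20 (10%) against 1.51% and 1.44%. NR4A3 is shown at chr9:99821635-99821884 (plus strand) and DUSP1 at chr5:172771196-172771445 (minus strand) because each held 4 matches to TGACG, and EGR1 at chr5:138465229-138465478 (plus strand) because it held 2 CArG boxes. Sequences run 5′ to 3′, with TGACG on either strand in capitals in the first 2 and the CArG boxes in capitals in the third.
NR4A3: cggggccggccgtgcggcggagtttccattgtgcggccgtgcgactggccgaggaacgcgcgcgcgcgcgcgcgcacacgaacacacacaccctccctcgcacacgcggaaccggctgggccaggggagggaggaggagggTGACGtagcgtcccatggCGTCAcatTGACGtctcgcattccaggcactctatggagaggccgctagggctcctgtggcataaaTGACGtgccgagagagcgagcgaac
DUSP1: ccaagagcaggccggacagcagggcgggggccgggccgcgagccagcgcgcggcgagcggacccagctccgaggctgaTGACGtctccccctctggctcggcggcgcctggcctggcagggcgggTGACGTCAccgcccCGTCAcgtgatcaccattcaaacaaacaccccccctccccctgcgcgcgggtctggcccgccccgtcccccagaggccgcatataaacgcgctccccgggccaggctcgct
EGR1: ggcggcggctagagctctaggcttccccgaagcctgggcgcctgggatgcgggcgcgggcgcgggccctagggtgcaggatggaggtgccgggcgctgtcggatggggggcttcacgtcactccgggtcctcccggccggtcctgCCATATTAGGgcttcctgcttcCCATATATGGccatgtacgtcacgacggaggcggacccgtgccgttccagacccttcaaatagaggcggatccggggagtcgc
The first bases of the matches lay 109, 91, 83 and 25 bases upstream of the start in NR4A3, 172, 125, 122 and 111 in DUSP1, and 105 and 83 in EGR1. A match is a description of letters in a window and was not tested against expression. The list was drawn up to hold known immediate early genes, so no conclusion is drawn from the shares above.

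Feedback on growth factor signals was mixed. Of 15 MAP kinase phosphatase and Sprouty genes, 5 fell and 2 rose (33.3% and 13.3%, against 11.3% and 5.97% of all genes). DUSP6, a phosphatase selective for ERK, was 3.16-fold lower (-1.66, SE 0.199, adjusted p = 2.94e-05) and DUSP10 2.13-fold higher (1.09). The 5 became 3 without replicate 3 at 1 h or without replicate 3 at 6 h. TRIB1, a pseudokinase scaffold, read 12.34, 12.40 and 12.39 at 1 h and 9.72, 9.61 and 9.51 at 6 h. The 3 arrays of each time lay close together and wide apart from the other time, a 6.79-fold fall. ETV1, an ETS family factor (-2.95), TMEFF2, a transmembrane protein with follistatin domains (-3.26), and ITPKC, an inositol trisphosphate kinase (-2.47), were also among the 15 largest falls. All 6 h arrays of ETV1 lay under the signal filter.

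Of 24 cytokine and chemokine genes above the filter, 12 rose and 1 fell (50% and 4.17%, against 5.97% and 11.3% of all genes), with a list median of 0.482. The gene that fell was TNF (-1.17, adjusted p = 0.004). Chemokines and colony-stimulating factors were among the 12. CCL5 read 7.11, 6.99 and 8.01 at 1 h and 12.01, 11.88 and 11.78 at 6 h. The groups were apart, although replicate 3 stood above the others at 1 h, and the rise was 4.52 (SE 0.264, adjusted p = 2.36e-08). CXCL6, a neutrophil chemokine, read 6.36, 6.15 and 6.45 at 1 h and 8.46, 8.44 and 8.36 at 6 h. It rose 4.29-fold (2.10, SE 0.162, adjusted p = 3.93e-07) with no overlap. CSF1, the growth factor of macrophages, rose 4.65-fold (2.22, SE 0.319), and its 1 h arrays read 7.93, 7.90 and 8.65. CCL2, a monocyte chemokine, rose 2.56-fold (1.36, SE 0.169). IL1B, the gene of IL-1β itself, rose by 1.87 (SE 0.258) from 1 h arrays that all lay under the signal filter.

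Other members of the list differed less between the times. IL6, the gene of a fever-inducing cytokine, read 12.09, 12.07 and 12.49 at 1 h and 12.70, 12.78 and 12.81 at 6 h. Its rise of 1.46-fold (0.54, SE 0.142, adjusted p = 0.0138) lost its call without replicate 1 or 2 at 1 h or replicate 3 at 6 h. CXCL8, the neutrophil chemokine interleukin-8, differed by 0.26 (SE 0.134, adjusted p = 0.219) and CCL22, a chemokine for regulatory T cells, by 0.45 (SE 0.184, adjusted p = 0.113). Neither passed the test, although CXCL8 was higher at 3 h than at 1 h (0.53, adjusted p = 0.0162). Of the list's 35 members on the array, 11 lay under the filter and were not tested.

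Genes of the NF-κB pathway mostly rose. Of 28 subunits, feedback genes and known targets tested, 15 rose and 4 fell (53.6% and 14.3%, against 5.97% and 11.3% of all genes), with a median of 0.439. The 4 that fell included 3 IκB-type genes. IRAK2, a kinase adaptor of the IL-1 receptor complex, read 7.73, 7.89 and 8.44 at 1 h and 10.38, 10.19 and 10.19 at 6 h. TNIP1, a ubiquitin-binding partner of the deubiquitinase A20, read 8.37, 8.33 and 8.62 at 1 h and 10.59, 10.49 and 10.54 at 6 h. Both were apart in all arrays, with IRAK2 4.7-fold higher (2.23, SE 0.205, adjusted p = 1.95e-06) and TNIP1 4.29-fold higher (2.10, SE 0.162, adjusted p = 3.93e-07). TRAF1, a signalling adaptor (1.30), SOD2, the mitochondrial superoxide dismutase (1.10), RELB (0.75) and NFKB2 (0.72), the subunits of the alternative pathway, rose too. The IκB-type genes NFKBID (-1.46), NFKBIE (-1.17) and NFKBIZ (-0.87) and the maturation marker CD83 (-1.60) fell. NFKBIA and TNFAIP3, the classical feedback inhibitors, and NFKB1 and REL, subunits, did not pass.

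Windows upstream of 13 of the 15 NF-κB genes that rose were in the RefSeq table. The κB letters GGAATTTCC were in 2 of the 13 genes (15.4%) against 0.507% for the genes tested and 0.502% of all genes with a window. For GGACTTTCC it was 2 (15.4%) against 0.498% and 0.407%. Both strands were searched, and the groups are small. The list was drawn up to hold known targets of NF-κB, so no conclusion is drawn from these shares. Over the genes that rose at least 2-fold, each was in 3 of the 112 genes with a window (2.68%). Over those that fell at least 2-fold, GGAATTTCC was in 4 of 282 (1.42%) and GGACTTTCC in 1 (0.355%). CXCL6 (chr4:73836428-73836677, plus strand) and SGPP2 (chr2:222423738-222423987, plus strand, 1 of 2 windows of that gene) both rose at least 2-fold. Each held 1 match, printed in capitals, whose first base lay 89 bases upstream of the start in CXCL6 and 138 in SGPP2.
CXCL6: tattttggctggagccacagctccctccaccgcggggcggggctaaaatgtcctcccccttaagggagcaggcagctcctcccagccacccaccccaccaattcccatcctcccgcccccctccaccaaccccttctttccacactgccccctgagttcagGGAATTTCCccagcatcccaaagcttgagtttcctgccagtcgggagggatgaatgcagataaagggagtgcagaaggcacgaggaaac
SGPP2: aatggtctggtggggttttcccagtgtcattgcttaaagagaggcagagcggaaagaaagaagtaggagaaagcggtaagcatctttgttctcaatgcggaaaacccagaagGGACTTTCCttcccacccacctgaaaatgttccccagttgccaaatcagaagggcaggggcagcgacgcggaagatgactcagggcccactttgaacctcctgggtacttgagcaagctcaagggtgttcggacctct
SGPP2, which removes the phosphate from sphingosine 1-phosphate, read 6.27, 6.03 and 6.51 at 1 h and 9.32, 9.03 and 9.17 at 6 h. No array overlapped, and the means differed by 2.91 (SE 0.191, adjusted p = 6.76e-08).

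In the TNF superfamily 5 of 18 genes tested rose and 4 fell (27.8% and 22.2%, against 5.97% and 11.3% of all genes). The 5 were receptors: TNFRSF11B, the decoy receptor osteoprotegerin (5.24-fold), the costimulatory receptors TNFRSF9 (2.82-fold) and CD40 (2.57-fold), the TRAIL receptor TNFRSF10A (1.86-fold) and TNFRSF21 (log2 difference 0.76). TNFRSF11B read 7.67, 7.42 and 7.81 at 1 h and 9.99, 9.94 and 10.15 at 6 h, with no overlap. The ligands TNFSF10 (TRAIL), TNF and TNFSF9 (-0.63) and the death receptor FAS (-0.67) fell. TNFSF10 read 8.34, 7.93 and 8.59 at 1 h and 5.43, 5.55 and 5.87 at 6 h. It fell by 2.67 (SE 0.426, adjusted p = 0.000395) to 6 h arrays that all lay under the signal filter. The count of 4 that fell became 2 without replicate 3 at 1 h. TNFSF18, a ligand of activated T cells, differed by 0.35 (SE 0.316, adjusted p = 0.504) and its groups overlapped.

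Secreted proteases and basement membrane genes were among the rises. Of 15 metalloproteinases and inhibitors 5 rose and 2 fell (33.3% and 13.3%, against 5.97% and 11.3% of all genes). MMP7 (matrilysin), MMP1 (collagenase), MMP10 and MMP3 (stromelysins) and the inhibitor TIMP1 (0.58) rose, and ADAMTS1 (-1.42) and MMP15 (-0.51) fell. MMP7 read 6.40, 6.43 and 7.03 at 1 h and 10.23, 10.16 and 10.29 at 6 h. The 12.2-fold rise (3.61, SE 0.299, adjusted p = 6.99e-07) left no overlap. MMP1 read 5.49, 5.62 and 5.52 at 1 h and 8.42, 8.31 and 8.48 at 6 h, a difference of 2.86 (SE 0.218). The 1 h arrays of MMP1, like those of MMP10 and MMP3, all lay under the signal filter of 6.19, so these genes were tested because of later or other groups. Of 30 matrix genes, 9 rose and 3 fell (30% and 10%). The basement membrane genes HSPG2, perlecan (3.02-fold), COL4A1 (2.81-fold) and COL4A2 (2.05-fold) were among those that rose, while the laminin chain LAMB1 fell (-1.12). The laminin chain LAMA5 (-0.71) and thrombospondin THBS1 (-0.42) fell too. Leaving out any 1 of the 6 compared arrays left 1 of the 2 metalloproteinase genes and 1 of the 3 matrix genes lower.

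In haemostasis, 8 of 24 genes rose and 3 fell (33.3% and 12.5%, against 5.97% and 11.3% of all genes). The 8 became 5 without replicate 1 at 1 h or replicate 3 at 6 h. SERPINE2, an inhibitor of thrombin and plasminogen activators, read 9.07, 8.90 and 9.52 at 1 h and 12.29, 12.20 and 12.32 at 6 h. PLAT, the tissue plasminogen activator, read 7.49, 7.50 and 8.06 at 1 h and 10.33, 10.25 and 10.47 at 6 h. In both, every 6 h array exceeded every 1 h array, with SERPINE2 8.64-fold higher (3.11, SE 0.204, adjusted p = 6.76e-08) and PLAT 6.34-fold higher (2.67, SE 0.288, adjusted p = 1.09e-05). The urokinase genes PLAU (0.73) and PLAUR, its receptor (0.72), and THBD, thrombomodulin (0.44), rose less, and THBD lost its call without replicate 1 at 1 h (adjusted p = 0.0647). ADM, the vasodilator adrenomedullin, fell 2.89-fold (-1.53, SE 0.192), and PTGS2, the inducible cyclooxygenase, fell 1.73-fold (-0.79, SE 0.181, adjusted p = 0.00595). EDN1, endothelin 1, a vasoconstrictor, read 9.26, 9.19 and 9.52 at 1 h and 9.65, 9.61 and 9.49 at 6 h. Its groups overlapped, and the difference of 0.26 (SE 0.178, adjusted p = 0.366) did not pass.

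Of 18 adhesion genes, 6 rose and 2 fell (33.3% and 11.1%, against 5.97% and 11.3% of all genes). ITGA2, the collagen-binding integrin chain, read 8.76, 8.44 and 8.55 at 1 h and 10.56, 11 and 11.18 at 6 h. The 5.04-fold rise (2.33, SE 0.428, adjusted p = 0.00118) went with a wider spread than in CD44, the hyaluronan receptor, which read 11.65, 11.53 and 11.98 at 1 h and 13.29, 13.40 and 13.37 at 6 h. CD44 rose 3.11-fold (1.63, SE 0.166) with no overlap. SELE, E-selectin, rose 2.4-fold (1.26, SE 0.173) and ICAM1, a ligand of leukocyte integrins, 1.49-fold (0.58, SE 0.121, adjusted p = 0.00324). VCAM1 lay under the filter (mean log2 5.67) and was not tested. The 2 that fell were ITGB8, an integrin chain (-0.82), and the adhesion molecule MCAM (-0.78), and 1 of them was left without replicate 1 or 3 at 1 h, without any 1 of the 6 h arrays, or without any 1 of 6 arrays of other groups.

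**Figure D2:**
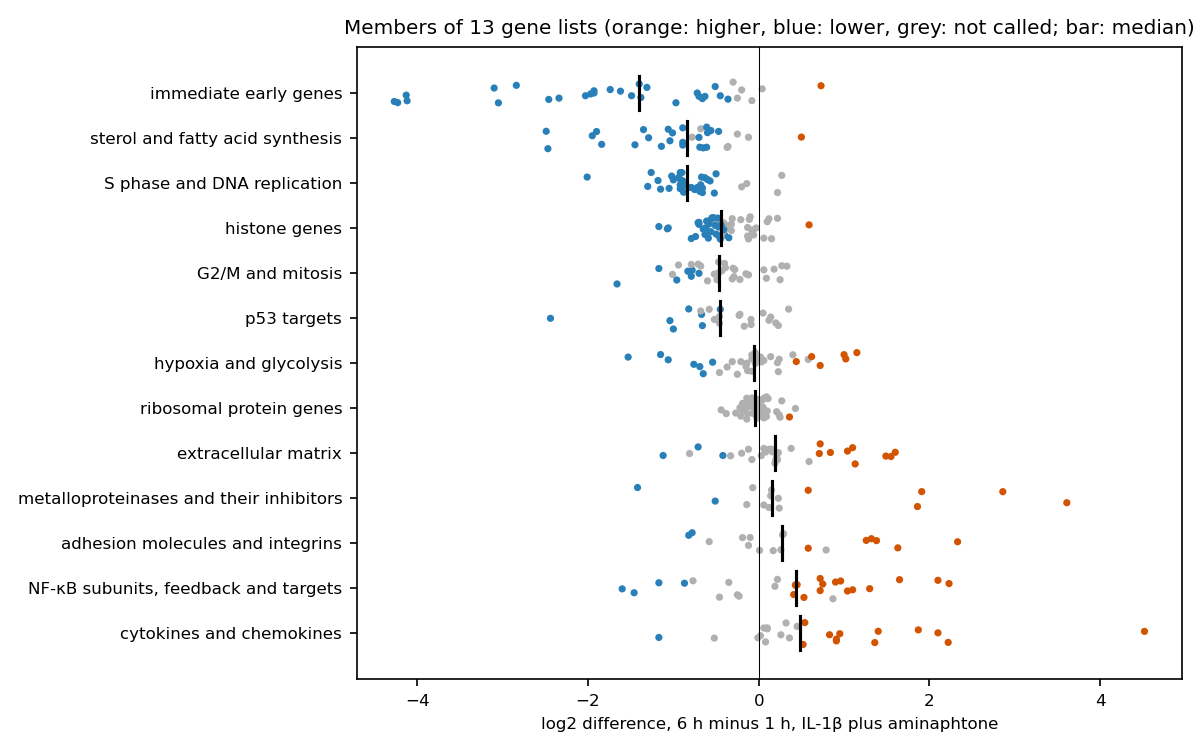
Log2 difference, 6 h minus 1 h with IL-1β plus aminaphtone (horizontal axis), for each tested member of 13 gene lists (rows); orange points rose and blue points fell in limma at adjusted p under 0.05, grey points were not called, and the black bar is the list's median. The immediate early, sterol and S phase lists have medians of -1.40, -0.834 and -0.835, and the cytokine and NF-κB lists 0.482 and 0.439.

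Most genes of the sterol and fatty acid synthesis list fell. Of 30 genes tested, 23 fell and 1, the cholesterol exporter ABCA1 (0.50), rose, with a median of -0.834. These were 76.7% and 3.33%, against 11.3% and 5.97% of all genes. HMGCS1, which makes the precursor of mevalonate, read 12.44, 12.35 and 12.38 at 1 h and 9.67, 9.93 and 10.10 at 6 h. IDI1, which isomerises the isoprenoid unit, read 11.50, 11.21 and 11.14 at 1 h and 8.63, 8.81 and 9.02 at 6 h. Both groups were over 2 log2 units apart in each gene, with HMGCS1 5.62-fold lower (-2.49, SE 0.333, adjusted p = 8.47e-05) and IDI1 5.53-fold lower (-2.47, SE 0.201, adjusted p = 6.03e-07). MVK (-1.45) and MVD (-1.04) of the mevalonate pathway, MSMO1 (-1.90), EBP (-1.14), DHCR7 (-1.06) and LSS (-0.89) of the sterol steps, and the fatty acid genes ELOVL6, an elongase (-1.84, to 6 h arrays under the signal filter), and FADS1, a desaturase (-1.01), fell. STARD4, a sterol carrier (-1.95), and MYLIP, which marks the LDL receptor for degradation (-1.35), fell as well. MYLIP and ABCA1 are members of the list that do not act in synthesis. The 6 that did not pass were SC5D, ACACA, SREBF2, FASN, PMVK and SCAP. ABCA1 lost its call on leaving out replicate 1 or 2 at 1 h or replicate 2 or 3 at 6 h. The letters TCACCCCAC, a core of the sterol regulatory element, were in 0 of the 21 genes that fell and had an upstream window. They were in 0.507% of the genes tested with a window and in 0.45% of all genes with one.

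DNA replication genes fell, most of them by less than 2-fold. Of 38 S phase genes, 33 fell and 0 rose (86.8% and 0%, against 11.3% and 5.97% of all genes), with a median of -0.835. PRIM1, the catalytic primase subunit, read 10.75, 10.54 and 10.19 at 1 h and 8.42, 8.51 and 8.52 at 6 h. It fell 4.04-fold (-2.01, SE 0.179, adjusted p = 1.57e-06), and no array overlapped. The helicase subunits MCM2, MCM3, MCM4, MCM5, MCM6 and MCM7 all fell, by 0.79 (MCM4) to 1.30 (MCM5) on the log2 scale, as did the clamp loader RFC4 (-1.26) and the clamp PCNA (-0.67). Of 57 histone genes, 29 fell and 1 rose (50.9% and 1.75%), with a median of -0.441. The linker histones H1-3 (-1.17) and H1-5 (-1.06) were among the 29. The 29 became 15 without replicate 1 at 1 h or replicate 2 at 6 h, 16 without replicate 2 at 1 h and 18 without replicate 3 at 6 h, and the 1 was lost without replicate 1 or 2 at 1 h or any 1 of the 6 h arrays. Of 33 genes of G2 and mitosis, 7 fell and 0 rose (21.2% and 0%). Among the 7 were HMMR, a spindle protein (3.15-fold), CDC25C, the phosphatase that starts mitosis (2.25-fold), and CCNB2, a mitotic cyclin (1.72-fold). The 7 became 12 without replicate 1, or replicate 2, of the 1 h arrays lacking aminaphtone.

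In the stress lists more genes fell than rose, as over all genes (11.3% and 5.97%), and most members did not pass. GDF15, a stress cytokine of the TGF-β family, read 12.93, 12.82 and 12.76 at 1 h and 10.65, 10.36 and 10.16 at 6 h, a 5.44-fold fall (-2.44, SE 0.230, adjusted p = 2.4e-06) with no overlap. It led the p53 targets, of which 7 of 23 fell and 0 rose, and CDKN1A and MDM2 did not pass. The 7 became 3 without replicate 3 at 1 h, 4 without replicate 1 or replicate 2 at 6 h and 11 without replicate 1 of the 1 h arrays lacking aminaphtone. DDIT3, a factor of the integrated stress response, fell 3.13-fold (-1.65, SE 0.147), and its feedback phosphatase subunit PPP1R15A fell 2.7-fold. The serine synthesis enzymes PSPH (-2.53) and PHGDH (-1.18) fell, as did the heat shock cochaperones DNAJB4 (5.2-fold) and DNAJB1 (3.26-fold). Of 33 genes of the unfolded protein and integrated stress responses 3 rose and 7 fell (9.09% and 21.2%), of 19 heat shock genes 0 rose and 4 fell, and of 28 oxidative stress genes 4 rose and 7 fell (14.3% and 25%). The first 7 became 4 without replicate 1 at 1 h, and the second 7 became 3 without replicate 2 at 6 h and 4 without any other 1 of the 6 compared arrays. SLC7A11, a cystine transporter held by both lists, fell 3.31-fold (-1.73, SE 0.489, adjusted p = 0.0214). Among the oxidative stress genes GCLM, a subunit of the enzyme that starts glutathione synthesis, rose 2.55-fold (1.35, SE 0.216), and NQO1, a quinone reductase, fell 1.29-fold (-0.37, SE 0.101, adjusted p = 0.0185). HMOX1, haem oxygenase 1, differed by 0.30 between 1 and 6 h (SE 0.152, adjusted p = 0.204), although it was higher at 3 h than at 1 h (0.91, adjusted p = 0.000891). NQO1 lost its call without replicate 2 or replicate 3 of either time.

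Ribosomal protein, small nucleolar RNA and cell junction genes had few members that passed. Of 62 ribosomal protein genes, 1 rose (RPL27A, 0.36) and 0 fell, which is 1.61% and 0% against 5.97% and 11.3% of all genes. Of 130 small nucleolar RNA genes, 4 rose and 1 fell (3.08% and 0.769%). Of 23 cell junction genes, 0 rose and 1, CDH1, fell (0% and 4.35%). RPL27A was lost without any 1 of the 6 compared arrays. The 4 small nucleolar RNA genes became 0 without replicate 2 at 1 h or replicate 2 or 3 at 6 h and 7 without replicate 2 of the 3 h arrays lacking aminaphtone, and the junction genes that fell became 4 without replicate 1 or replicate 2 of the 1 h arrays lacking it. Of 40 ribosome biogenesis factors, 4 rose (10%, against 5.97% of all genes) and 1 fell, with RRP12, a factor of small subunit export, 1.82-fold higher (0.87, SE 0.161, adjusted p = 0.00128). The 4 became 2 without replicate 2 at 1 h or replicate 1 at 6 h, and 9 without replicate 2 of the 1 h arrays lacking aminaphtone. Of 383 C2H2 zinc finger genes, 39 rose (10.2%) and 24 fell (6.27%), against 5.97% and 11.3% of all genes, and these became 71 and 38 without replicate 2 of the 1 h arrays lacking aminaphtone, 65 and 44 without replicate 1 of them. The 39 became 23 without replicate 2 at 1 h and 24 without replicate 3 of either time, and the 24 became 11 without replicate 1 at 1 h and 14 without replicate 1 or 2 at 6 h.

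The 3 h arrays show how far each change had come. Of the transcript clusters that rose at least 2-fold by 6 h, the 3 h mean had covered a median of 88.7% of the log2 change (quartiles 74 and 107), and in 58 of 158 it lay beyond the 6 h level. Of those that fell at least 2-fold, the median was 66.2% (quartiles 49.2 and 85.3), and 35 of 364 lay beyond. Both steps use arrays of the 1 to 6 h comparison, and the difference between rises and falls is a description. Between 1 and 3 h 1665 transcript clusters passed (10.5%), and between 3 and 6 h 42 passed (0.266%), 4 higher and 38 lower. The 42 moved with single arrays, from 4 without replicate 2 at 3 h to 260 without replicate 2 of the 1 h arrays lacking aminaphtone, and the 1665 became 790, 830 and 1056 without replicate 1 at 1 h, replicate 1 at 3 h and replicate 2 at 1 h, and 2633 and 2641 without replicate 1 or replicate 2 of the 1 h arrays lacking aminaphtone.

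**Figure D3:**
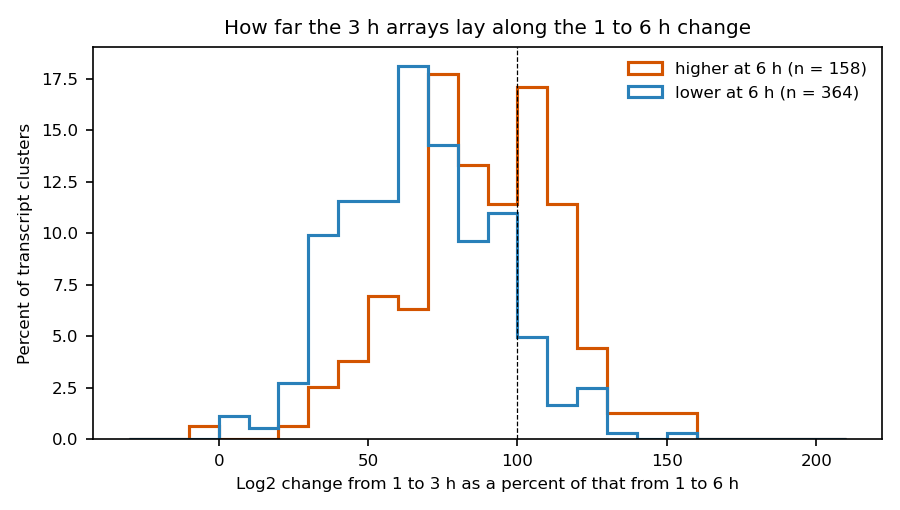
Distribution of the log2 change from 1 to 3 h as a percent of that from 1 to 6 h (horizontal axis), as percent of transcript clusters (vertical axis), for those that rose (orange, n = 158) or fell (blue, n = 364) at least 2-fold by 6 h in the arrays with aminaphtone; the dashed line at 100 marks the 6 h level. The orange curve lies further right, with medians of 88.7% and 66.2%.

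Genes took distinct courses between the ends. PLAT read 10.77, 10.97 and 10.71 at 3 h, above all its 6 h arrays, and CCL2 read 12.73, 12.84 and 12.77, also above them, although neither 6 h minus 3 h difference passed (-0.47 and -0.27, adjusted p = 0.688 and 0.71). MMP1 read 6.88, 6.70 and 7.02 at 3 h, between the other times in every array, and rose again from 3 to 6 h (1.53, adjusted p = 0.00667). STC2, a secreted stanniocalcin, read 7.03, 7.0 and 7.15 at 1 h, 7.21, 6.69 and 6.98 at 3 h and 8.26, 8.16 and 8.20 at 6 h. Its 1 and 3 h arrays overlapped, and the rise came after 3 h (1.24, adjusted p = 0.00472). SLC7A2, a transporter of arginine, rose in both steps (1.34 and 1.44, adjusted p = 0.00432 and 0.04). IDI1 fell in both as well, by 0.85 and then by 1.62 (adjusted p = 0.0118 and 0.00294).

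At 3 h replicate 2 often lay nearer to 1 h than the others did. NR4A3 read 7.88, 9.46 and 7.72 at 3 h, FOSB 8.73, 10.07 and 8.54, and EGR1 10.15, 11.41 and 10.04. In each of these, replicate 2 was over 1 log2 unit above the other 2 and still below every 1 h array. Their 3 to 6 h differences (-1.46, -1.26 and -0.22) did not pass (adjusted p = 0.145, 0.133 and 0.919). This was not particular to the arrays with aminaphtone. Without it, replicate 2 at 3 h was also highest in FOSB (8.48, 9.67 and 8.44) and EGR1 (9.56, 10.9 and 9.71).

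The same interval without aminaphtone gave most of the same changes. In the arrays with IL-1β alone, which share no array with the comparison above though they may have been normalised together with it, 1561 of 13805 genes rose (11.3%) and 2175 fell (15.8%). Of the 2644 transcript clusters that changed with aminaphtone, 1606 (60.7%) were also called without it, which is 38.4% of the calls without it, and 1604 of the 1606 had the same direction. Across the 15796 transcript clusters, which are not independent, the 2 sets of differences correlated at 0.685, and 94.6% of the calls with aminaphtone had the same sign without it. The list medians without aminaphtone were -1.50 for immediate early genes, 0.555 for cytokines, 0.187 for NF-κB genes, -0.626 for sterol genes and -0.451 for S phase genes. NR4A3 differed by -4.23 without aminaphtone against -4.27 with it, SERPINE2 by 3.15 against 3.11 and TNFRSF11B by 2.58 against 2.39.

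The difference between the 2 changes was tested directly. It passed for 8 of 15796 transcript clusters (0.0506%), 2 more positive and 6 more negative with aminaphtone, and 1882 had an unadjusted p under 0.05. The 8 became 3388 without replicate 1 of the 1 h arrays lacking aminaphtone, 13 without replicate 2 of their 3 h arrays, 4 without any 1 of 6 other arrays, and 3 without any 1 of 6 more, replicates 2 and 3 at 6 h with aminaphtone among them. BNIP3 and DIPK2A passed under all 27 alternatives run, and PRDM1 lost the call only where the fit was limited to the arrays compared. MYLIP lost it in 8 of 27 alternatives, PDK1 in 14 of 27, PFKFB4 in 15 of 26, P4HA1 in 16 of 27 and MIDEAS in 17 of 27. The 1 h arrays without aminaphtone correlated least among themselves of the 6 groups, and the part of this in the result was not tested.

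BNIP3, a mitophagy receptor induced by low oxygen, read 10.78, 10.78 and 10.70 at 1 h and 10.86, 10.57 and 10.45 at 6 h with aminaphtone. Its groups overlapped, and the difference of -0.13 (adjusted p = 0.556) did not pass. Without aminaphtone it read 10.60, 10.55 and 10.65 at 1 h and 12.12, 11.80 and 11.98 at 6 h, a 2.58-fold rise, and the changes differed by -1.49 (SE 0.183, adjusted p = 0.00236). A like pattern was seen in PDK1, which inhibits pyruvate dehydrogenase, P4HA1, a collagen prolyl hydroxylase, and PFKFB4, which makes an activator of glycolysis. With aminaphtone they differed between 1 and 6 h by -0.04, 0.06 and -0.08 and did not pass, and without it they rose 3.3-fold, 3.12-fold and 2.39-fold. The changes differed by -1.77, -1.58 and -1.34 (adjusted p = 0.0321, 0.0321 and 0.0387), and of 18 fits that each left out 1 array the call was kept in 6, 5 and 5.

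These 4 belong to the hypoxia and glycolysis list. Of its 39 members, 6 rose and 7 fell with aminaphtone (15.4% and 17.9%, against 5.97% and 11.3% of all genes), with a median of -0.0545. The 7 became 4 without replicate 2 at 6 h. Without aminaphtone 19 rose and 5 fell (median 0.312), and 32 of the 39 had a more negative change with aminaphtone, as had 43.7% of all genes tested. STC2, HK2 (hexokinase 2, 1.02) and DDIT4, an inhibitor of mTOR (1.00), rose with aminaphtone, while SLC2A3, a glucose transporter, fell 2.22-fold and the glycolytic enzyme PFKM 2.09-fold. In the G2 and mitosis list 31 of 33 changes were more negative with aminaphtone. Of the 33, 22 had an unadjusted p under 0.05 (12.2% over all genes), and 0 passed after adjustment. In the small nucleolar RNA list the shift was opposite, with 114 of 130 more positive (median 0.496, and 56.3% over all genes), 34 at an unadjusted p under 0.05 and 0 past adjustment. Without aminaphtone 9 of the 33 genes of G2 and mitosis rose and 2 fell. With it, their median change was -0.752 from 1 to 3 h and 0.333 from 3 to 6 h.

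DIPK2A, a secreted kinase-like protein, read 8.68, 8.68 and 8.71 at 1 h and 7.93, 7.91 and 8.0 at 6 h with aminaphtone. It fell 1.68-fold (-0.75, SE 0.111), whereas without aminaphtone it rose 1.48-fold from a lower 1 h level (8.3, 7.92 and 7.99). The changes differed by -1.31 (SE 0.157, adjusted p = 0.00236). MYLIP read 8.79, 8.91 and 9.06 at 1 h and 7.72, 7.43 and 7.57 at 6 h with aminaphtone, with no overlap. Without it the difference was -0.01, and the changes differed by -1.34 (SE 0.204, adjusted p = 0.0206). PRDM1, a transcriptional repressor, read 8.02, 7.93 and 8.31 at 1 h and 7.45, 7.33 and 7.29 at 6 h with aminaphtone, a 1.66-fold fall. Without aminaphtone it fell 4.07-fold from a higher 1 h level (9.53, 9.12 and 9.52), and the changes differed by 1.29 (SE 0.173, adjusted p = 0.00514). MIDEAS, a histone deacetylase complex subunit, fell in both, 3.33-fold with aminaphtone and 6.65-fold without, and the changes differed by 1.00 (SE 0.167, adjusted p = 0.036).

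**Figure D4:**
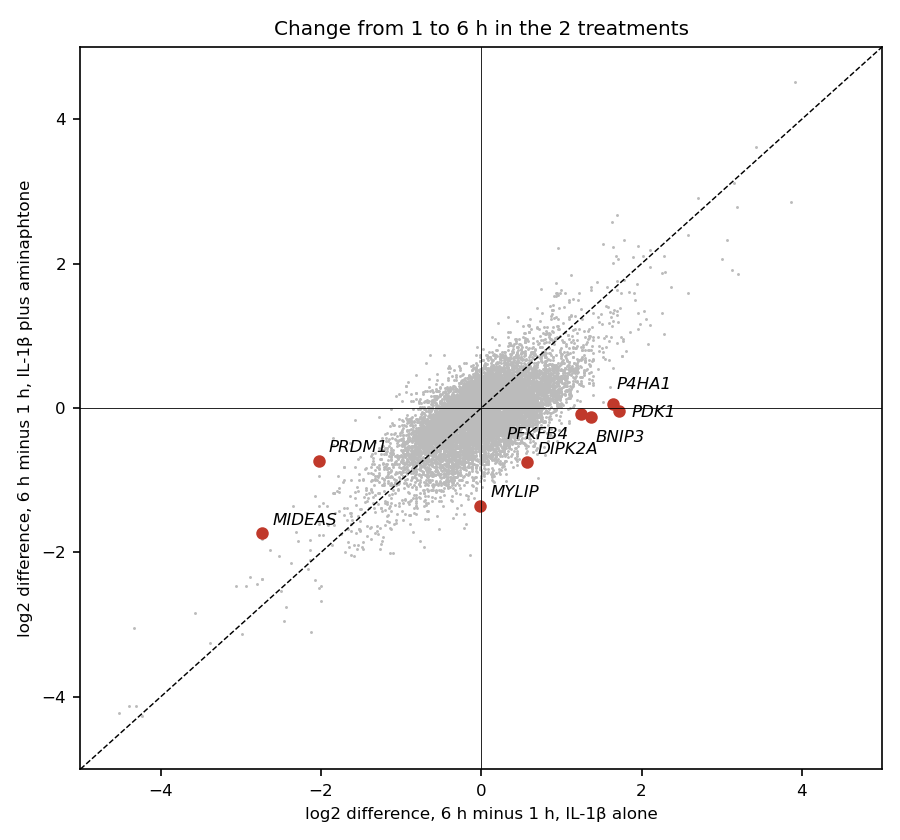
Log2 difference between 6 and 1 h with IL-1β plus aminaphtone (vertical axis) against that with IL-1β alone (horizontal axis) for the 15796 transcript clusters (grey); red points are the 8 whose change differed between the treatments in limma, and the dashed line marks equal change. BNIP3, PDK1, P4HA1 and PFKFB4 lie near 0 on the vertical axis and between 1.25 and 1.72 on the horizontal one.

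**Figure D5:**
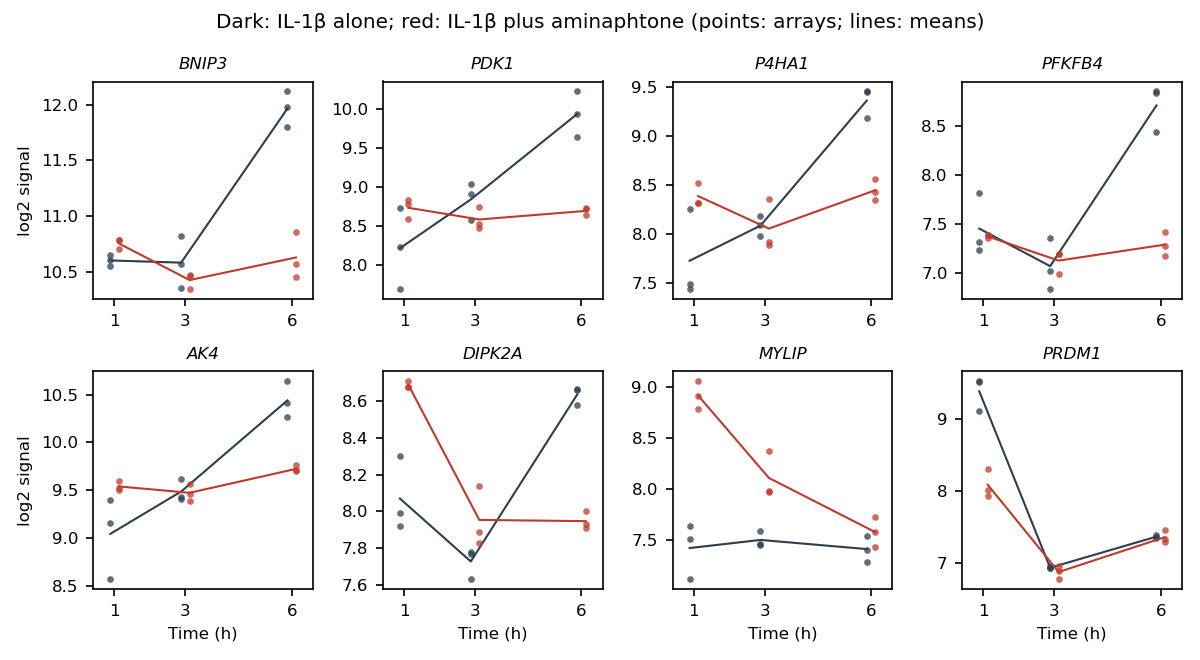
Log2 signal of 8 genes (vertical axes, a separate range for each) against time in h (horizontal axes), with IL-1β alone (dark) and with aminaphtone (red); points are single arrays, 3 per time and treatment, and lines join means. In BNIP3 every 6 h array without aminaphtone lies above every array with it. In MYLIP, PRDM1, DIPK2A, AK4 and, by less, BNIP3 the treatments are apart at 1 h. AK4 did not pass the test of the difference (adjusted p = 0.0766).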

How the data were processed

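RNA from each of 18 samples, 3 per treatment and time, was hybridised to its own Human Gene 1.0 ST array. The authors deposited 1 log2 value per transcript cluster and array, made with Affymetrix Expression Console and RMA, per the submitters' processing notes; versions, the genome build and which arrays were normalised together are not given in the sources used here. The values, from 1.85 to 14.25, were used as deposited. Gene symbols came from the platform annotation, and 19279 of the 19310 transcript clusters with 1 symbol matched RefSeq.

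Annotated transcript clusters above the 25th percentile of mean signal (6.19) were fitted over all 6 groups with limma 3.58.1 in R 4.3.3, with 12 residual degrees of freedom. Tests were 2-sided, with Benjamini-Hochberg adjustment over 15796 transcript clusters and a threshold of 0.05. An exact permutation test of 3 against 3 arrays cannot go below 0.1, so none was used. A gene was represented by its transcript cluster of highest mean signal, giving 13805 genes. Precision is limited by the number of arrays.

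Named genes were the 15 largest rises and 15 largest falls, the 4 members of smallest p in each list, those of smallest p between treatments, and 20 fixed genes; other members given with a difference only, were named after their values were seen. The members and lists were chosen with earlier results of these data known. Promoter windows are RefSeq's (GRCh38.p14). Alternatives covered the arrays in the fit, a replicate block, centring, a further quantile normalisation, array weights, the prior variance, the signal filter, a covariate, and leaving out arrays.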

Additional observations from a re-analysis of the deposited data

Results flagged for a closer look

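In 8 genes the change from 1 to 6 h differed between the cells given IL-1β plus aminaphtone and those given IL-1β alone, by a test of that difference in limma with adjustment over all transcript clusters. The difference, change with aminaphtone minus change without on the log2 scale, was -1.31 in DIPK2A and -1.49 in BNIP3 (adjusted p = 0.00236 in both), -1.34 in MYLIP, -1.58 in P4HA1, -1.77 in PDK1 and -1.34 in PFKFB4. It was positive in PRDM1 (1.29) and MIDEAS (1.00). In BNIP3, PDK1, P4HA1 and PFKFB4 the 6 h arrays without aminaphtone stood above their own 1 h arrays, and with aminaphtone the means of both times lay within 0.13 of each other. In MYLIP, PRDM1 and DIPK2A the treatments were already apart at 1 h. MYLIP averaged 8.92 with aminaphtone and 7.42 without, PRDM1 averaged 8.09 and 9.39, and DIPK2A averaged 8.69 and 8.07. BNIP3 was apart there by less (10.78, 10.78 and 10.7 with aminaphtone, 10.6, 10.55 and 10.65 without). Groups of 3 arrays were too small for a search for single stray arrays.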

How the results depend on the processing

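Of 181 named genes 153 passed, 133 of them in every alternative tried, and 0 turned direction. For calls between 6 and 1 h (2644), between 3 and 1 h (1665), between 6 and 3 h (42) and for the difference between treatments (8), the leave-one-array-out ranges were 1643 to 4008, 790 to 2641, 4 to 260 and 3 to 3388. Fitting only the arrays compared gave 5201 calls between 6 and 1 h and 3 for the difference. Array weights, estimated gene by gene because the default estimate did not converge, gave 7694, 4795, 5054 and 5057 in that order, and a covariate that follows the main residual gradient gave 5945, 3909, 958 and 27. Median centring and a further quantile normalisation left 26 and 23 calls between 6 and 3 h. Requiring at least 2-fold left 522 between 6 and 1 h. Without the 3 control arrays at 1 h, an alternative added after seeing the data, as were all those for the steps to and from 3 h, the first 3 counts became 4521, 3206 and 406. Each remaining alternative left the counts within 1.5 times, bar the one named next. The cause of these shifts was not tested.

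Replicate numbers did not pair the 1 and 6 h arrays: residuals of same-numbered arrays correlated at -0.678, -0.222 and -0.108, and 0 of 6 arrays correlated best with its own number. For 3 against 6 h the correlations were 0.662, -0.27 and 0.691, with 4 of 6 best with their own, and for 1 against 3 h they were -0.463, 0.252 and -0.359, with 0 of 6, so that in neither were all pairs positive. With the number as a replicate block the counts were 2708, 1633, 37 and 4.

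There are 3 arrays per group, the spread is shared with groups outside the comparison, and genes under the signal filter were not tested.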

Other observations

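Genes of growth and developmental signals were also among those that passed. HBEGF, a ligand of the EGF receptor, read 10.14, 10.30 and 10.59 at 1 h and 11.82, 11.70 and 11.58 at 6 h with aminaphtone. This was a 2.56-fold rise (1.36, SE 0.195, adjusted p = 0.000167) with no overlap. The receptor gene ERBB3 fell 2.22-fold. BMP6, a bone morphogenetic protein, rose 2.67-fold, and the differentiation inhibitor ID2 fell 2.77-fold (-1.47, SE 0.130, adjusted p = 1.56e-06). HES1, a repressor downstream of Notch, read 10.52, 10.32 and 10.55 at 1 h and 9.0, 8.78 and 8.62 at 6 h, and fell 3.17-fold. Of 31 growth factor genes 4 rose and 5 fell (12.9% and 16.1%), and of 27 TGF-β, BMP and ID genes 5 rose and 7 fell (18.5% and 25.9%), against 5.97% and 11.3% of all genes. The last 5 became 8 without control replicate 1 at 1 h, and the 7 became 4 without replicate 1 at 1 h with aminaphtone.

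IRF1, an interferon regulatory factor, read 10.82, 11.03 and 11.38 at 1 h and 9.80, 9.71 and 9.67 at 6 h, apart in all arrays and 2.56-fold lower. BCL6, a repressor, fell 2.5-fold, and BCL2A1, an NF-κB target that protects from apoptosis, rose by 1.37 from 1 h arrays that all lay under the signal filter. Among the 15 largest rises were CDCP1, a transmembrane substrate of Src kinases (4.55-fold), SLC12A7, a potassium chloride cotransporter (4.82-fold), ABTB2 (5.02-fold) and C6orf132 (5.95-fold, with a second transcript cluster at 1.57-fold). Of 23 YAP and TEAD targets 3 rose and 6 fell (13% and 26.1%). Of 17 BCL2 family genes 3 rose and 2 fell (17.6% and 11.8%), and of 21 interferon genes 2 rose and 2 fell (9.52% and 9.52%). Over all genes 5.97% rose and 11.3% fell. Without control replicate 1 or 2 at 1 h, the BCL2 family had 5 higher and 4 lower. The interferon genes had 1 higher without any 1 of the 6 arrays compared or of 6 others, and 1 lower without replicate 3 at 6 h with aminaphtone.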
